A study of Mus musculus with 22 samples.

Results

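A 9-fold step in nanotube dose was compared within exposed mouse lungs: 6 lungs that received 162 µg of Mitsui7 against 6 that received 18 µg, out of 22 lungs on 22 arrays in the series. The 12 lungs were taken by the dose in the array labels, and no expression value chose them. Mitsui7 is a preparation of long, thick multi-walled carbon nanotubes. All mice were female C57BL/6 with no transgene or other altered allele, 8 weeks old when the experiment began, and all were anaesthetised with Hypnorm and Dormicum. Each was instilled once through the trachea with 40 µl and killed 24 hours later, and RNA came from the right lung. The nanotubes were suspended in 0.9% NaCl with 10% lavage fluid from untreated mice, which the 5 vehicle control mice received alone; another 5 mice received 54 µg. Controls were not part of the contrast, so a difference between 18 and 162 µg does not say by itself on which side of the controls a gene lies. Each lung was labelled with Cy5 and hybridised against a common reference RNA of 11 mouse cell lines labelled with Cy3, with no dye swap. Levels below are log2 ratios of lung to that reference, and differences are 162 µg minus 18 µg on the log2 scale, adjusted for the slide.

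The lung meets inhaled particles with several overlapping programmes. Acute phase genes encode plasma-type proteins made during injury, driven in large part by interleukin 6 and STAT3 with glucocorticoids. Glucocorticoids are stress steroids from the adrenal gland that enter cells, bind the receptor encoded by Nr3c1 and switch on a recognisable set of genes, Fkbp5, Tsc22d3 and Zbtb16 among them, and they also act with metals on the metallothioneins. Heat shock and unfolded protein response genes encode chaperones that fold proteins in the cytosol and the endoplasmic reticulum. Interferon-stimulated genes answer virus and cytokine signals, and clock genes keep the daily rhythm of most lung cells.

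Between the doses, 845 of 15101 expressed genes passed an adjusted p of 0.05 (limma, Benjamini-Hochberg) with a change of at least 1.5-fold. This is 5.6% of the genes tested, and among 33012 expressed probes 1354 passed, or 4.1%. Genes called higher at 162 µg numbered 564, or 3.73%, and genes called lower 281, or 1.86%. The rises were also larger, since 213 were at least 2-fold against 53 falls, and 26 were at least 4-fold against 1 fall. In 275 of the risen genes and 97 of the fallen ones the 6 mice at 162 µg did not overlap the 6 at 18 µg. Over all expressed genes this held for 540 of 15101, or 3.58%, and the called genes are part of that count. A call needs a wide gap, so these counts are descriptions. Slide was a source of spread, and 5 of the 7 slides held both doses. Direction was the same on every measured shared slide for 527 of the 564 rises and 251 of the 281 falls. The same arrays chose these genes, and the share over all expressed genes was not counted, so this too is a description. With 12 residual degrees of freedom the median standard error was 0.13 on the log2 scale, and 4282 expressed genes had an unadjusted p below 0.05. The number of falls rested partly on 1 mouse: without replicate 1 at 162 µg, 426 genes were called higher and 186 lower. Array brightness varied, with 56.8% to 77.9% of probes above background at 18 µg and 52.1% to 83.5% at 162 µg. Replicates 4, 5 and 6 of each dose had under 65% of probes above background, and without those 6 arrays, a setting chosen after seeing the data, 407 genes were called higher and 172 lower.

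**Figure D1:**
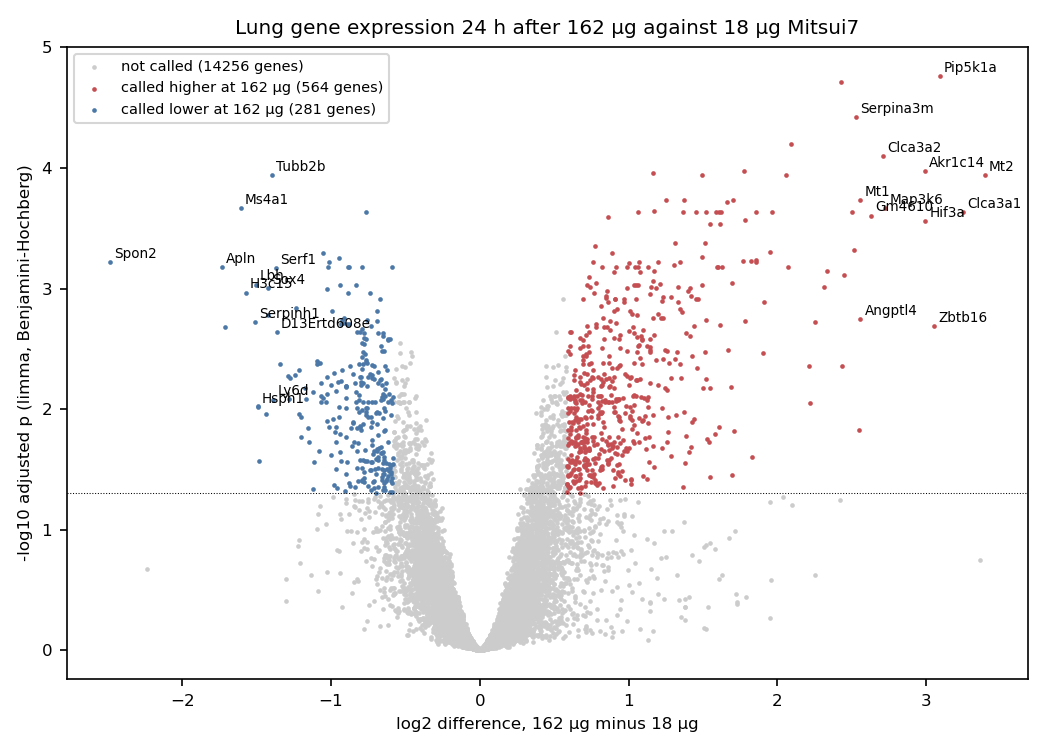
Difference between 162 and 18 µg (log2, horizontal axis) against the adjusted p of each expressed gene (−log10, vertical axis), from limma over 22 arrays. Called genes, 564 higher and 281 lower, are coloured, and the rises reach further from 0 than the falls.

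The genes with the largest rises, among those whose mice did not overlap, were led by metallothionein 2 (Mt2), a small cysteine-rich protein that binds zinc and copper. Its level ran from -2.53 through a median of -1.83 to -0.82 at 18 µg, and from 1.25 through 1.76 to 2.26 at 162 µg. The 2 doses were far apart, and the difference of 3.39 (standard error 0.35, adjusted p = 0.000114 by limma) is a 10.5-fold rise. Metallothionein 1 (Mt1), its neighbour on chromosome 8, ran from -1.93 through -1.37 to -0.54 and from 1.10 through 1.44 to 1.88, a rise of 2.56 (standard error 0.28, adjusted p = 0.000184 by limma). Zbtb16, a zinc finger transcription factor known as a glucocorticoid target, lay at 0.91, 1.84 and 2.47 (lowest, median, highest) and then at 4.68, 5.11 and 5.46. It rose by 3.05 on the log2 scale, or 8.29-fold (standard error 0.49, adjusted p = 0.00205 by limma), with no mouse of one dose reaching the other.

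Akr1c14, an aldo-keto reductase that reduces steroids, rose from a median of 2.70 (2.49 to 3.63) to 5.96 (5.36 to 6.63), a difference of 2.99. Map3k6, a stress-activated kinase, rose from 0.29 (-0.11 to 0.45) to 3.19 (2.50 to 3.48), with a difference of 2.72. Serpina3m, a serine protease inhibitor of the acute phase, went from 1.91 (1.45 to 2.33) to 4.92 (3.21 to 5.34) and had a difference of 2.53. Each of these genes was higher on all 5 slides that held both doses, as the lack of overlap between their mice requires. Angptl4, a secreted inhibitor of lipoprotein lipase, had a difference of 2.56, with levels of -0.38 to 1.41 against 3.20 to 3.55. The calcium-activated chloride channel regulators Clca3a1 and Clca3a2 rose by 3.25 and 2.71. At 18 µg both were well above background on 4 of 6 arrays, the first had a usable spot in 5 mice of each dose, and whether a probe of one also responds to the other, a close copy, was not tested. Gm4610, a long non-coding RNA, rose by 2.63. For Pip5k1a, a lipid kinase, the brightest probe rose by 3.09 while its 3 expressed probes ranged from 0.09 to 3.09. Hif3a behaved alike, with 3 probes from -0.22 to 2.99, so these rises are of single probes.

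The largest falls were smaller. Spon2, a secreted matrix protein that binds microbes and leukocytes, ran from 0.18 through 0.43 to 1.65 at 18 µg and from -2.71 through -2.13 to -1.26 at 162 µg. It fell by 2.48 on the log2 scale (standard error 0.33, adjusted p = 0.000603 by limma) and is the gene that fell more than 4-fold. Apln, the peptide ligand apelin made by endothelial tip cells, went from 0.65 (0.34 to 1.11) to -1.18 (-1.33 to -0.52), a difference of -1.73. Ms4a1, which encodes the B cell surface protein CD20, went from 0.53 (0.25 to 1.57) to -1.01 (-1.64 to -0.41), a difference of -1.61. Serpinh1, the collagen chaperone, had a difference of -1.51 and Hsph1, a large heat shock protein, one of -1.49. The remaining falls were H3c15, a histone H3 gene (-1.57), the transcription cofactor Lbh (median 0.97 at 18 µg and -0.90 at 162 µg), the transcription factor Sox4 (-1.42), the tubulin Tubb2b (-1.40), Ly6d (-1.39), Serf1 (-1.37) and D13Ertd608e (-1.36, well above background at 162 µg on 3 of 6 arrays). All 24 genes of these groups kept their direction on every shared slide on which they were measured. They were chosen for mice that do not overlap, which fixes that direction in advance, so it adds no support. None of the 24 calls was lost when any 1 of the 22 mice was left out.

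**Figure D2:**
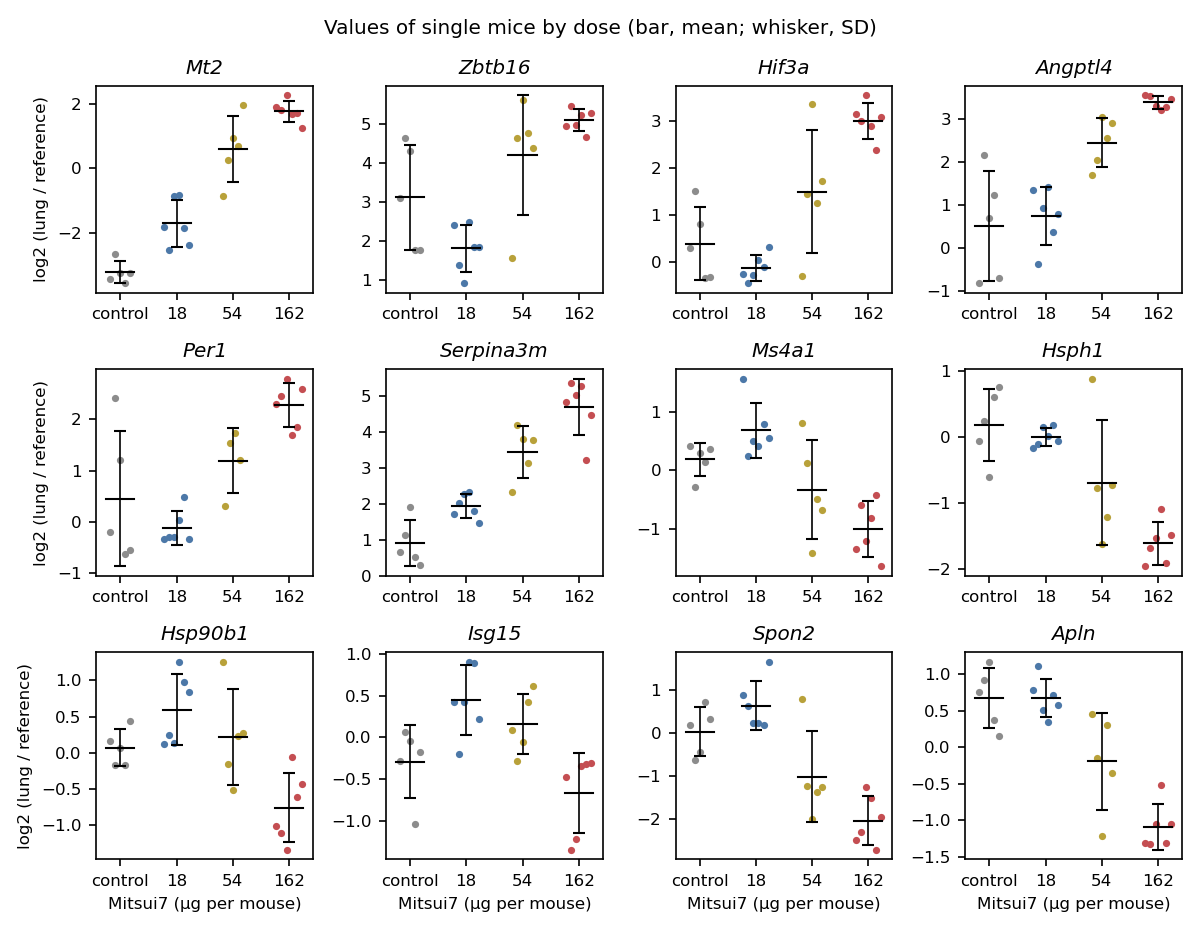
Level of 12 named genes in each mouse (log2 ratio of lung to reference, vertical axis) for controls, 18, 54 and 162 µg, 1 point per mouse with a bar at the mean and a whisker of 1 SD. In the 6 risen genes all points at 162 µg lie above those at 18 µg, and in the 6 fallen genes all lie below.

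Glucocorticoid response genes formed the group with the largest shift. Of 19 expressed members, 16 rose and none fell, with a median difference of 1.69 against 0.01 over all expressed genes and 18 of 19 members higher. The mean of the 19 genes lay at 0.26, 0.45 and 0.71 at 18 µg (lowest, median and highest mouse) and at 2.07, 2.37 and 2.64 at 162 µg. Both doses were tight and clearly separated, and within the 5 shared slides the difference of this mean was 1.51 to 2.27. At 54 µg the median mouse was at 1.63, with a wider range of 0.59 to 2.08. Controls had a median of 0.35 and ranged from 0.05 to 1.70, so the highest vehicle mouse lay within the range of the 54 µg group and above every mouse at 18 µg. All 16 calls were of genes whose mice at the 2 doses did not overlap.

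Fkbp5, a co-chaperone that binds the receptor and damps it, rose by 2.52 (standard error 0.33, adjusted p = 0.000481 by limma) from levels of -1.72 to -0.88 at 18 µg to levels of 0.86 to 1.53. Pdk4, the kinase that turns off pyruvate dehydrogenase, rose by 2.43, with levels of -0.46 to 0.72 and then 1.38 to 3.48. Tsc22d3, known as the glucocorticoid-induced leucine zipper, rose by 1.53 (0.61 to 2.05, then 2.67 to 3.47). All 3 stand in the list as known glucocorticoid targets, and the cause of their rises was not tested. Ddit4, an inhibitor of the growth kinase mTOR, rose by 1.69, the transcription factor Cebpd by 1.71, the EGF receptor inhibitor Errfi1 by 1.55, and the kinase Sgk1, which acts on sodium channels, by 1.17. Klf9, a transcription factor, and Sult1a1, a sulfotransferase, rose by 1.06 and 1.23. Cdkn1a, which encodes the cell cycle inhibitor p21, rose by 1.52 on its brightest probe, but its other probe gave -0.08. The call of Hif3a, also in this list, rests on a single probe too, as given above. The members that did not pass were Dusp1 (0.95, adjusted p = 0.15 by limma), Lcn2 (0.51, adjusted p = 0.349) and the receptor Nr3c1 itself (-0.10, adjusted p = 0.717). With any 1 mouse left out, 14 to 16 members were called, and 12 were called after median centring and 6 without normalization. Without the 6 dimmer arrays 8 were called, with Zbtb16, Per1 and Angptl4 among those lost.

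**Figure D3:**
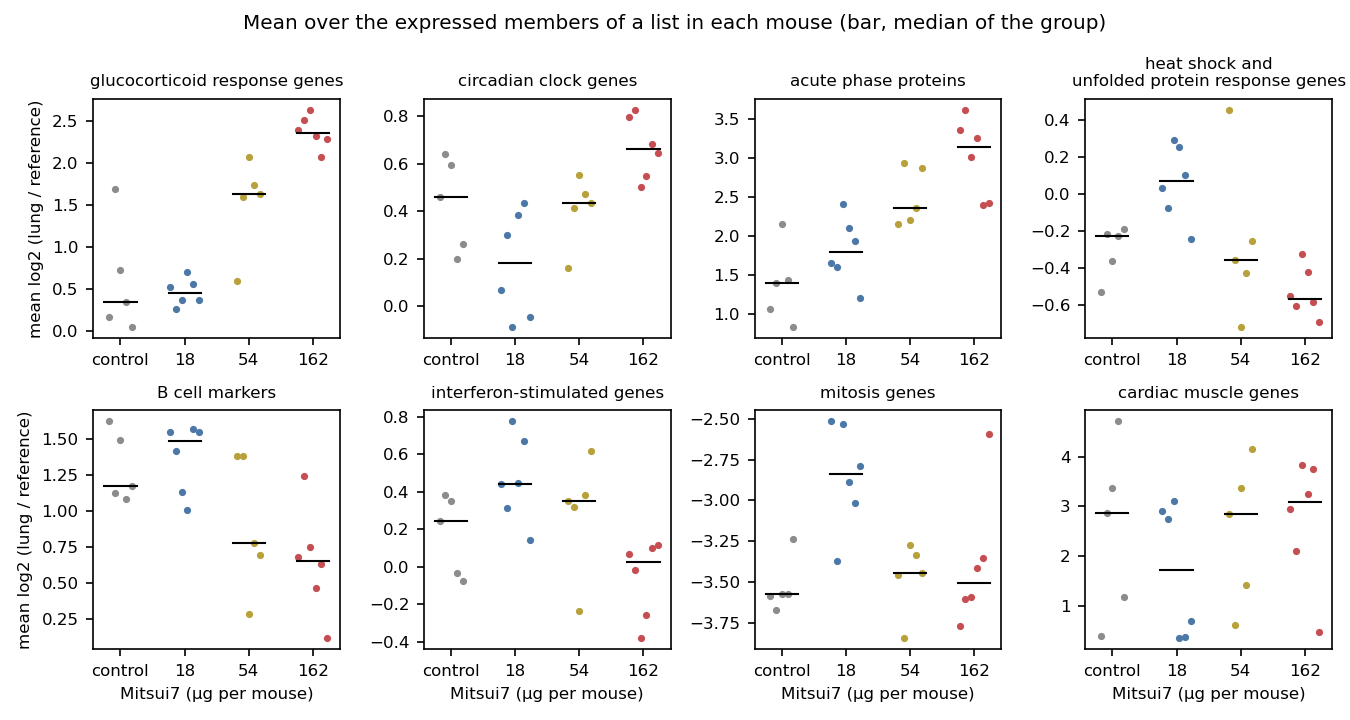
Mean level of the expressed members of 8 gene lists in each mouse (log2 ratio of lung to reference, vertical axis) for controls, 18, 54 and 162 µg, 1 point per mouse with a bar at the group median. The 162 µg mice lie above all 18 µg mice for the glucocorticoid list and below all of them for the heat shock list.

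Metallothionein and zinc transporter genes rose together in part. Of 11 expressed members 4 rose and none fell, with a median of 0.27. Besides Mt1 and Mt2 these were the zinc importers Slc39a14, which rose by 1.27 (from -1.33 to 0.06 at 18 µg to 0.03 to 0.77), and Slc39a8, which rose by 0.90 (from 4.77 to 5.93 up to 6.03 to 7.11). The mean over the list was -0.06 to 0.45 at 18 µg and 0.80 to 1.12 at 162 µg, without overlap. Mt1 and Mt2 stand in both the metal and the glucocorticoid list, and their promoters are shown for the motifs of both. Each window holds 300 bases around the RefSeq start, most of them upstream, on GRCm38.p6. Capitals mark the metal response element core, TGCACNC or TGCGCNC on either strand, and in Mt1 also the glucocorticoid response element core, GNACA and TGTNC with 3 free bases between them, where N is any base. Mt1 lies at chr8:94178839-94179138 and Mt2 at chr8:94172368-94172667, both on the plus strand.
Mt1: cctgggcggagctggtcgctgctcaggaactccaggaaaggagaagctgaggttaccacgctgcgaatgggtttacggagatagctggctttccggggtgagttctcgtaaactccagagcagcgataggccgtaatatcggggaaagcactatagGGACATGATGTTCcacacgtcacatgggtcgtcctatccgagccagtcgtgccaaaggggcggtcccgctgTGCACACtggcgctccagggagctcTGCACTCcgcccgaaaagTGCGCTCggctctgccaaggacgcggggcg
Mt2: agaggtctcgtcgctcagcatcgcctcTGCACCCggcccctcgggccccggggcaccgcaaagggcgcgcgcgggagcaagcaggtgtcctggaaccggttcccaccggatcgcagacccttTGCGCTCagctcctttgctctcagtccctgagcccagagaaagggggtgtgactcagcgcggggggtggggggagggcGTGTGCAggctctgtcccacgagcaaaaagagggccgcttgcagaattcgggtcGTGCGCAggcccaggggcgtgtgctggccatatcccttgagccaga
The Mt1 window held 3 matches of the metal core and 1 of the glucocorticoid core, and the Mt2 window held 4 of the metal core. A metal core was found in 8 of the 10 list members that had a promoter sequence, against 28.2% of 27025 mouse genes. Within the glucocorticoid list, 2 of 15 members, Mt1 and Sgk1, held the glucocorticoid core in this window, against 0.537% of all genes. A match is a description of these letters only.

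Clock genes rose in part. Of 17 expressed members 6 rose and none fell (median 0.39), and in all 6 the mice did not overlap. Per1, a period gene that glucocorticoids also switch on and that stands in both lists, had levels of -0.34, -0.30 and 0.49 (lowest, median, highest) at 18 µg and 1.70, 2.39 and 2.80 at 162 µg. It rose by 2.21 on the log2 scale (standard error 0.39, adjusted p = 0.00437 by limma), with no overlap. Per2 rose by 1.31 (from -0.37 to 0.85 up to 0.95 to 2.15), and the clock output factor Tef by 1.36. Cry2, a repressor of the clock, rose by 0.87 from 0.78 to 1.41 up to 1.99 to 2.14. Hlf, which drives clock-controlled genes, rose by 0.71. The CACGTG E-box, the core bound by clock factors, stood in 4 of the 14 promoters of this list against 8.09% of all genes. This match too describes letters only. The list mean ran from -0.09 to 0.43 at 18 µg and from 0.50 to 0.83 at 162 µg, with the 54 µg mice at 0.16 to 0.55 and controls at 0.20 to 0.64. The hour at which each lung was taken is not given in the sources used here, and its part in this result was not tested.

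Acute phase proteins rose in part. Of 23 expressed members 7 rose and none fell, 22 were higher and the median was 0.62. Fgg, a fibrinogen chain, lay at 0.54, 1.75 and 2.69 at 18 µg and at 2.53, 4.65 and 6.14 at 162 µg, a rise of 2.45 (standard error 0.35, adjusted p = 0.000773 by limma) in which the lowest mouse at 162 µg reached into the 18 µg range. Saa2, a serum amyloid A protein, lay at 0.48, 2.04 and 2.55 and then at 1.93, 4.92 and 6.03, a rise of 2.55 (adjusted p = 0.0149 by limma) that was not called without replicate 1 at 162 µg. Saa1 rose by 1.70, and hemopexin (Hpx), which binds heme, by 1.78. Orm1 and Orm2, the orosomucoids, rose by 2.07 and 2.33 and were well above background on 4 of 6 arrays at 18 µg. Whether probes of such near-identical copies respond to both genes was not tested. The list mean ran from 1.20 to 2.41 at 18 µg and from 2.40 to 3.61 at 162 µg.

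Inflammatory cell and cytokine lists are short. Among all expressed genes 3.73% were called higher and 1.86% lower, so few or no calls in such a list do not set it apart. Il1r2, the interleukin 1 decoy receptor and itself a glucocorticoid-responsive gene, was the neutrophil marker that rose (1.04 with a range of 0.67 to 2.21, then 3.64 with a range of 2.02 to 5.54, difference 2.22). It was 1 of 18, or 5.56%. The defining granule and receptor markers did not pass, although 16 of 18 were higher and the median was 0.36. Of 11 neutrophil chemokine and G-CSF genes 2 rose (18.2%) and 1 fell (9.09%), against 3.73% and 1.86% of all expressed genes. Cxcl1 rose by 1.17, a call lost in 9 of the 22 fits with a mouse left out. The growth factor Csf3 was well above background on no array at 18 µg and on 4 of 6 at 162 µg. It was at least 1.40-fold higher (adjusted p = 0.0098 by limma), a call lost without replicate 4 at 162 µg. The member that fell was Cxcl15, an airway chemokine, with a difference of -0.85. No member of the type 2 chemokine and cytokine list passed in either direction among 17, with a median of -0.41. Ccl24, an eosinophil chemokine, ran from -1.92 through 1.43 to 3.75 at 18 µg and from -2.34 through -1.71 to 1.03 at 162 µg, a spread among mice of 1 dose wider than the gap between doses. Il13 was well above background on no array at 162 µg and did not pass either. Eosinophil markers (10), monocyte chemokines (11) and proteasome genes (31) had no calls.

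Matrix, protease and clotting genes rose in part. Of 28 matrix and TGF-beta genes 4 rose and 1 fell, with a median of 0.07. Lox, which cross-links collagen, went from -2.34 (-3.05 to -1.79) to -0.49 (-1.40 to -0.04), a rise of 1.69. Ccn2, a connective tissue growth factor, rose by 1.49 and the basement membrane collagen Col4a1 by 1.12, while the fibrillar collagen Col3a1 had a difference of -1.17 (0.01 to 1.06, then -1.34 to -0.24). None of these 4 genes overlapped between doses. Of 16 metalloproteinases and inhibitors 4 rose, the inhibitors Timp3 (1.59) and Timp4 (1.62) and the proteases Adamts4 (1.27) and Mmp3 (1.01). Of these, Mmp3 lost its call in 15 of the 22 fits with a mouse left out, and Adamts4 without replicate 2 at 18 µg or replicate 1 at 162 µg. Of 17 clotting and fibrinolysis genes 3 rose. Tissue factor (F3), which starts clotting, rose by 1.60 from 0.08 to 1.05 up to 1.48 to 2.78, and the thrombin receptor F2r by 1.23.

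Stress and metabolic lists held some rises, where 3.73% of all expressed genes were called higher. The shares were 15.4% of NRF2 targets, 19.0% of hypoxia and glycolysis genes and 23.5% of p53 targets. Among 26 NRF2 target genes 4 rose: Gsta3 (1.42) and Gsta1 (0.96), which conjugate glutathione, the ferritin heavy chain Fth1 (0.91) and Osgin1 (0.84). Gsta1 was well above background on 3 of 6 arrays at 18 µg. Without replicate 1 at 162 µg 2 of the 4 were called, since Gsta1 and Osgin1 were lost. Among 21 hypoxia and glycolysis genes Bnip3 (1.08), Pfkfb3 (1.06), Adm (0.89) and Hk2 (0.76) rose, the last 2 of which lost their call in 8 and 7 fits. Among 17 p53 targets Cdkn1a, Trp53inp1 (0.93), the death receptor Fas (0.90) and Plk3 (0.76) rose. Lpl, the lipoprotein lipase, which lies in the alveolar macrophage and retinoid lists, went from a median of 1.23 to 2.94 (2.91 to 3.79), a rise of 1.82 with no overlap. In the same macrophage list Abcg1 (-0.83) and Itgax (-0.64) fell, and the call of the second was lost in 16 of the 22 fits. Of 29 retinoid genes 3 rose and 2 fell, with Lipe, a hormone-sensitive lipase, at 0.94, the esterase Esd at 0.61 and the esterase Ces2e at -0.64 beside Lpl. Single rises were those of the transcription factor Maff (0.89) among 19 immediate early genes, the TWEAK receptor Tnfrsf12a (0.90) among 17 NF-kB genes, and the cholesterol exporter Abca1 (0.65, lost in 10 fits) among 27 sterol genes. Their shares of 5.26%, 5.88% and 3.70% lie near that of all expressed genes and do not set these lists apart. Of 24 xenobiotic genes 2 rose (8.33%), Sult1a1 among them, of 19 IL-6 and STAT3 genes Cebpd (5.26%), and of 6 red cell genes none. Ereg, 1 of 7 EGF receptor ligands, was well above background on no array at 18 µg and on 5 at 162 µg and was at least 2.49-fold higher (adjusted p = 0.0128 by limma).

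**Figure D4:**
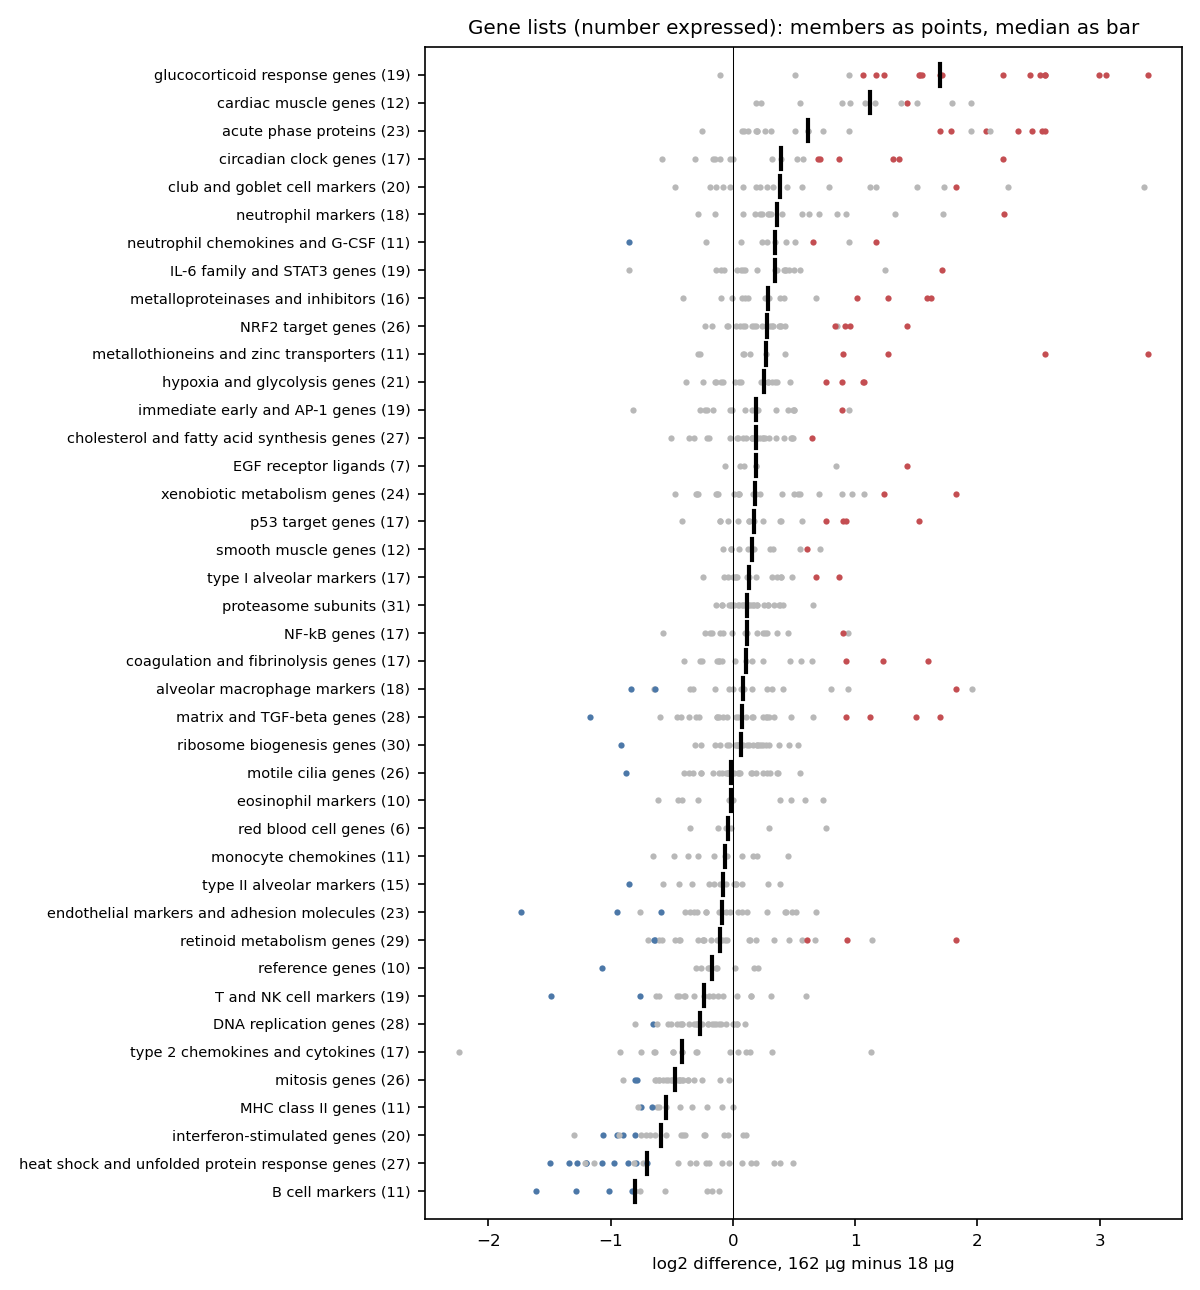
Differences of the expressed members of 41 gene lists (162 µg minus 18 µg, log2, horizontal axis), 1 point per gene, with a bar at the list median and called genes coloured. The glucocorticoid list has the highest median (1.69) and the B cell list the lowest (-0.80).

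Heat shock and unfolded protein response genes were the largest group of falls. Of 27 expressed members 10 fell and none rose, and the median was -0.70. In 7 of the 10 the mice did not overlap. Hsp90b1, the endoplasmic reticulum form of HSP90, lay at 0.13, 0.54 and 1.26 at 18 µg and at -1.34, -0.81 and -0.05 at 162 µg. It fell by 1.27 on the log2 scale (standard error 0.24, adjusted p = 0.00556 by limma). Hspa5, known as BiP, the main chaperone of the same compartment, fell by 1.20 from 0.85 to 2.04 down to -0.50 to 0.53. Pdia6, which forms disulfide bonds, fell by 1.34 and Creld2, a secreted stress-response protein, by 1.20. In the cytosol the falls were Hsph1 (-1.49), Hsp90ab1 (-1.07), Hsp90aa1 (-0.97), Dnaja1 (-0.86) and Hspa8 (-0.79), and in the mitochondria Hspd1 (-0.70, adjusted p = 0.0498 by limma). The list mean was -0.25, 0.07 and 0.29 at 18 µg and -0.69, -0.57 and -0.32 at 162 µg, and within the shared slides it was lower at 162 µg by 0.45 to 0.68. Controls had a median of -0.22. Without replicate 4 at 18 µg 6 members were called, without the 6 dimmer arrays 2, and after median centring or without normalization none, with all genes called lower falling to 10 and 0 there. By limma without normalization, 66 expressed genes were lower at an unadjusted p below 0.05.

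The endoplasmic reticulum stress response element, CCAAT and CCACG with 9 free bases between them on either strand, is the sequence through which ATF6 acts on chaperone genes. It was found in the promoters of 4 of the 23 list members that had one, Creld2, Hsp90b1, Hspa5 and Pdia6, against 0.137% of all genes. All 4 fell, out of 7 called members with a promoter. The list was made of known genes of this response, so the share is a description, and action of ATF6 was not tested. As with the metal core, a match here or of the heat shock element below describes letters only. The promoters of Hspa5 (chr2:34771840-34772139, plus strand, 1 match) and Hsp90b1 (chr10:86705395-86705694, minus strand, 2 matches) are shown with the element in capitals, on GRCm38.p6 and in the direction of the gene.
Hspa5: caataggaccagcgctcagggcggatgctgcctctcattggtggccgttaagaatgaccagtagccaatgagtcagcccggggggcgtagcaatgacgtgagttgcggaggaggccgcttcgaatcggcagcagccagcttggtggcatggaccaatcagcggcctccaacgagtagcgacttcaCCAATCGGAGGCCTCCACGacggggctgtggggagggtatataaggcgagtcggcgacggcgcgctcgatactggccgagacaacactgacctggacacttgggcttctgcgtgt
Hsp90b1: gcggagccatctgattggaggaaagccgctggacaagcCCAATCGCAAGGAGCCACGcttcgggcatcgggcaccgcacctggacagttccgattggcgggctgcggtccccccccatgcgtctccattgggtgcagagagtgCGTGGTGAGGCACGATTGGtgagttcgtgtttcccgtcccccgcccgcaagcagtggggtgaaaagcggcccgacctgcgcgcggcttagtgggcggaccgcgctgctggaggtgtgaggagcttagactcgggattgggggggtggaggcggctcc
A heat shock element, 3 alternating blocks of GAA and TTC with 2 free bases between neighbours, stood in 3 of the 23, Hspd1, Hspe1 and Hsph1, against 0.662% of all genes.

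Interferon-stimulated genes fell in part. Of 20 expressed members 4 fell and none rose, with a median of -0.59. Isg15, a ubiquitin-like protein, lay at -0.20, 0.42 and 0.91 at 18 µg and at -1.35, -0.41 and -0.30 at 162 µg. It fell by 1.07 on the log2 scale (standard error 0.20, adjusted p = 0.00611 by limma). The guanylate-binding proteins Gbp2 (-0.94) and Gbp3 (-0.80) and Ifi44 (-0.90, lost in 3 fits with a mouse left out) fell too, and the mice of Isg15, Gbp3 and Ifi44 did not overlap while those of Gbp2 did slightly. With any 1 mouse left out 3 to 8 members were called, the most without replicate 6 at 18 µg. Other alternatives gave 1 to 6, and median centring or no normalization gave 0. The list mean was 0.15 to 0.78 at 18 µg and lay below all of these mice at 162 µg, with -0.38 to 0.12, while controls ran from -0.08 to 0.39. An interferon-stimulated response element core, GAAA and GAAA with 2 free bases between them on either strand, stood in 9 of the 16 members with a promoter, against 3.99% of all genes. The list was made of known interferon targets, so this share is a description. The promoters of Isg15 (chr4:156200769-156201068, minus strand, 3 overlapping matches) and Gbp2 (chr3:142620413-142620712, plus strand, 1 match) are printed with it in capitals.
Isg15: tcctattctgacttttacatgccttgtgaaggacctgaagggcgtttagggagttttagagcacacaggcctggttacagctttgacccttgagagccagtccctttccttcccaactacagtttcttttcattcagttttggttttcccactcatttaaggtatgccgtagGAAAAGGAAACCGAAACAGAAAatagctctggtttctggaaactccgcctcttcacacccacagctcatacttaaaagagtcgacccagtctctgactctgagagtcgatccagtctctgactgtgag
Gbp2: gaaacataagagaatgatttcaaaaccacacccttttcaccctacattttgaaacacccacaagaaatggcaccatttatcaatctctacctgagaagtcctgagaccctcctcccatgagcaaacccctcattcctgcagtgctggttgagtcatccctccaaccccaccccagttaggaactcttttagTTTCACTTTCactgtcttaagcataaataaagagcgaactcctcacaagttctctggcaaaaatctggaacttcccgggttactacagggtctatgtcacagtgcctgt

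Lymphocyte and antigen presentation genes fell in part, and most members did not pass. In whole lung RNA, fewer cells of a type and less RNA per cell cannot be told apart. Of 11 expressed B cell markers 4 fell, none was higher and the median was -0.80. Beside Ms4a1 these included Cd79b, a part of the B cell receptor (0.30, 1.18 and 2.25, then -0.14, 0.18 and 0.32, difference -1.02), and the complement receptor Cr2 (-0.82). The list mean was 1.01 to 1.57 at 18 µg and 0.12 to 1.24 at 162 µg, which overlap, and 1.09 to 1.63 in controls. Without the 6 dimmer arrays 1 member was called. Among 19 T and NK cell markers Lck, the T cell receptor kinase, fell by 0.76 (from -0.68 to 0.16 down to -1.39 to -0.77) and granzyme A (Gzma) by 1.49, the second lost in 7 fits. Of 11 MHC class II genes Cd74, the invariant chain (-0.75), and H2-DMa, which loads peptides (-0.66), fell, and these calls were lost in 13 and 6 fits with a mouse left out. Endothelial markers held 3 falls of 23, with Vcam1 (-0.95) and Kdr (-0.59, lost in 10 fits) beside Apln.

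Proliferation genes differed less clearly. None of 26 mitosis genes was higher, the median was -0.47, and 2, Bub1 (-0.79) and Ccna2 (-0.80, lost in 6 fits), fell. The mean of the mitosis genes was -3.37, -2.84 and -2.51 at 18 µg and -3.77, -3.50 and -2.59 at 162 µg, where replicate 6 lay apart from the other mice. Without that mouse 13 members were called and without replicate 6 at 18 µg 7, but 1 without replicate 3 at 18 µg or replicate 1, 2, 3 or 5 at 162 µg, and 0 without a slide term. Controls had a median of -3.57 and mice at 54 µg one of -3.44, so the 18 µg mice were the higher group of the 4. By slide-adjusted means, 162 µg lay between 18 µg and controls for 18 of the 26 mitosis genes and 22 of the 28 DNA replication genes. This order held for 30.6% of all expressed genes. E2f8, a repressor of S phase genes, was the replication gene that fell (-0.66), a call lost without replicate 3 at 18 µg.

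Lists of other lung structures are short and held few calls, which does not set them apart. Among all expressed genes 3.73% were called higher and 1.86% lower. Among 12 heart muscle genes, which mouse lung carries in the sleeves of its pulmonary veins, all were higher and the median was 1.12, but only Ankrd1 passed (1.42, lost in 6 fits). The mean of this list ran from 0.35 to 3.11 at 18 µg and from 0.48 to 3.84 at 162 µg, and its median became -0.13 without the 6 dimmer arrays. Its part in the other results was not tested. Of 20 club and goblet cell genes 1 rose, or 5%. Of 17 type I alveolar genes Krt7 (0.87) and Krt19 (0.68) rose, or 11.8%, and of 12 smooth muscle genes Des (0.61), or 8.33%. The calls of Krt19 and Des were lost in 14 and 5 of the 22 fits with a mouse left out. Of 26 cilia genes Tppp3 fell (-0.88, lost in 13 fits), or 3.85%, and of 15 type II alveolar genes Cxcl15 (lost in 3 fits), or 6.67%. Ribosome biogenesis genes held 1 fall of 30, Pes1, whose 2 probes disagreed (-0.92 and 0.24). Among reference genes Hprt (-0.13, adjusted p = 0.593 by limma), Actb (-0.20, adjusted p = 0.66) and Gapdh (0.02, adjusted p = 0.978) did not pass, and the signs of the first 2 turned after median centring. Hsp90ab1 is also used as a reference gene and fell, as given above.

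**Figure D5:**
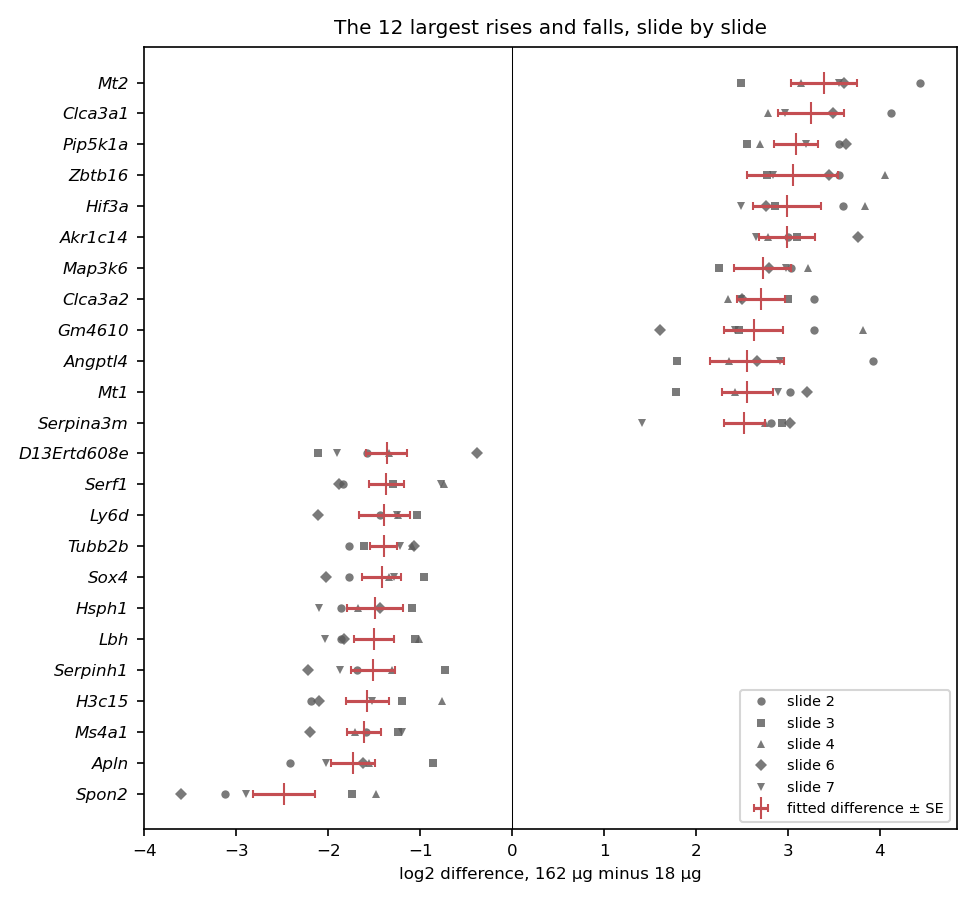
Difference of the 12 genes that rose most and the 12 that fell most (162 µg minus 18 µg, log2, horizontal axis) within each of the 5 slides that held both doses, 1 symbol per slide, with the fitted difference and its standard error in colour. Each of the 24 genes keeps its direction on every slide on which it was measured, which follows from choosing genes whose mice do not overlap.

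Controls and the middle dose place these differences. By slide-adjusted means, 54 µg, which is midway between the doses on a log scale, lay between 18 and 162 µg for 551 of the 564 risen genes (97.7%) and 248 of the 281 fallen ones (88.3%), against 45.5% of all expressed genes. The median position was 52.2% of the way for rises and 49.2% for falls. The calls chose genes by a wide gap, so this share is a description. Controls lay between the doses for 400 of the risen genes (70.9%) and 194 of the fallen ones (69.0%), against 32.6% of all expressed genes. In another 156 (27.7%) and 76 (27.0%) the order was control, 18 and 162 µg, against 36.8% of all expressed genes. Among these were Mt2, whose control mean was lower than at 18 µg by 1.40, and Serpina3m. In the remaining 8 and 11 genes 162 µg lay between 18 µg and controls, against 30.6% of all expressed genes. Calls need a wide gap from the same 18 µg mean, which favours controls between the doses, so these shares are descriptions too. For most called genes 18 µg and controls were close: they differed by less than 1.5-fold in 491 of the risen genes (87.1%) and 246 of the fallen ones (87.5%). The same share over all expressed genes was not counted, so this closeness does not set the called genes apart. Zbtb16 was an exception, its control mean lying 1.39 above that at 18 µg.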

How the data were processed

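Per the labels, RNA from the right lung of 22 mice was hybridised with a universal mouse reference RNA on 2-colour Agilent arrays of 62976 spots, in 7 slides, and 6 arrays each were at 18 and 162 µg. The authors deposited the median spot intensity in each channel with its local background, written by Feature Extraction 10.7.3.1 and neither subtracted nor normalized. The authors also deposited log2 ratios with a single value per probe, whose normalization is not given in the sources used here, and these served as an alternative.

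Loess with a span of 0.3 was run on the Cy5 to Cy3 log2 ratios of every array, outlier spots were left out, and replicate spots were summarised as 55681 probes. RefSeq accessions named 26413 probes, the tables of the study another 177, and 29091 stayed unnamed, of which 318 were called. Computations used R 4.3.3, limma 3.58.1 and data.table (version 1.17.8). Group and slide were fixed effects over all 22 arrays, so that controls and 54 µg help to estimate the spread, and p was adjusted over all probes (Benjamini-Hochberg). A gene, represented by its probe of highest mean intensity, was called if its adjusted p was 0.05 or lower, it changed 1.5-fold or more and its Cy5 signal exceeded the trimmed mean (5%) plus 3 trimmed standard deviations of 308 negative control spots in 80% or more of the arrays at one of the doses. "At least N-fold" sets the mean of the brighter group against the detection level where every array of the other group was not well above background by the software's flags. The counts of arrays above background given for single genes use those flags too.

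Named are the 12 called genes with the largest rise and the 12 with the largest fall whose mice do not overlap, up to 4 called members of each of 41 lists (or 2 with the largest t where none was called) and Hprt, Actb and Gapdh; other called members were added after their values were seen. Some called genes are not reported here. The contrast, lists and alternatives were chosen with earlier results of these data known, so lists get counts and medians and no test. The labels do not say that mice were housed or dosed apart, so p-values measure the spread between these lungs. Promoters come from a RefSeq table of GRCm38.p6. Tested on simulated data, limma recovered 95% of probes changed by 1.5 and 75% of those changed by 0.8 on the log2 scale, among 200 changed probes of 55681, with 12 false calls. Alternatives were other background and normalization steps, the deposited table, other slide and replicate terms, subsets of arrays, other filters and thresholds, array weights and leaving out each mouse. The number of arrays limits the precision.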

Additional observations from a re-analysis of the deposited data

Results flagged for a closer look

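Of 112 named genes tested in each dose, 4 at 18 µg and 5 at 162 µg had 1 mouse far from the other 5 by Dixon's criterion, where chance gives about 1 in 20. At 18 µg, replicate 2 had Akr1c14, a steroid-reducing enzyme, at 3.63 (log2 ratio of lung to reference), above its group but below every mouse at 162 µg. Replicate 4 had Il1r2, the interleukin 1 decoy receptor, at 2.21, inside the range of the high dose. Replicate 3 had the chemokine Ccl5 at -0.67 and replicate 6 the adhesion molecule Vcam1 at -0.23, both the lowest of their group.

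At 162 µg, replicate 5 had Lpl at 3.79, well above the others. Replicate 3 had Cxcl1 at -2.82, the lowest of its group, and the muscle filament gene Des at 2.72, the highest. Replicate 6 had Cd74 at 4.53, which places that mouse within the 18 µg group, and replicate 4 had Apln at -0.518.

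Means over gene lists had a single mouse apart in 8 cases. At 162 µg these were the monocyte chemokines in replicate 4 (0.792), the eosinophil markers in replicate 2 (3.15), the type I alveolar markers in replicate 5 (3.07), the NF-kB genes in replicate 5 (0.217) and the mitosis genes in replicate 6 (-2.59). At 18 µg they were the matrix and TGF-beta genes in replicate 3 (-0.246), the EGF receptor ligands in replicate 4 (0.123) and the xenobiotic metabolism genes in replicate 3 (2.87). The mitosis value is the one that moved a count in the report, from 2 to 13 called members without that mouse.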

How the results depend on the processing

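Direction held for all 845 called genes in the 4 other fits whose calls were set against them one by one: the 12 arrays alone with slide and the same fit on the 10 arrays of shared slides (468 of the rises and 222 of the falls called again), the deposited log2 table (358 and 176) and the fit without the 6 dimmer arrays (328 and 107). The fits on 12 and 10 arrays coincide, since an array alone on its slide adds nothing once slide is a term. All of these fits reuse arrays that chose the genes, so the shared direction is a description. The loess step mattered most. Rises were 66.7% of calls, against 94.3% after median centring (165 higher, 10 lower) and 100% without normalization (31 higher, 0 lower), where the median of all expressed genes was 0.20 in place of 0.01. The deposited table gave 372 rises, the 12 arrays without slide 375 and 161, no fold threshold 861 and 505, and a 2-fold threshold 213 and 53. Without the 6 dimmer arrays 172 falls remained past the threshold. The cause of these shifts was not tested, apart from the thresholds and smaller sets of arrays. With each mouse left out in turn, 426 to 642 genes were higher and 186 to 358 lower, the lowest of both without replicate 1 at 162 µg, and 323 and 150 were called in all 22 fits.

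Replicate numbers were not taken as pairs: deviations of same-numbered mice correlated between -0.01 and 0.64, and 3 of 6 mice at 18 µg correlated best with their own number, all 3 on a shared slide. With the replicate number as a block in place of slide, 660 genes were higher and 311 lower.

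Among the 112 named genes, signs turned only for genes that did not pass: Hprt 0.025 and Actb 0.059 after median centring, Hprt 0.17, Actb 0.20 and Hemgn 0.0077 without normalization, Actb 0.052 without the dimmer arrays, and Gapdh from -0.12 to 0.10 with a mouse left out. Signs of the other called genes were not followed after median centring or without normalization. Signal over background, 1.24 to 2.11 at 18 µg and 1.18 to 2.49 at 162 µg, limits what dim probes can show.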

Other observations

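Several called genes lie outside the gene lists and were picked for this paragraph after their values were seen. Among the rises, Fst, which encodes the activin inhibitor follistatin, had a log2 difference of 2.50, and Rgcc, a regulator of the cell cycle, one of 2.42. Sphk1, the kinase that makes sphingosine 1-phosphate, rose by 2.09. Cirbp and Rbm3, RNA-binding proteins known for their response to cold, rose by 1.91 and 1.44. Klf15 (1.62) and Foxo3 (1.55) encode transcription factors of fasting metabolism, and Pnpla2 (1.22) the lipase that starts fat breakdown. The peroxide-removing enzyme Prdx6 rose by 1.14.

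Among the falls, Calr, the calcium-binding chaperone calreticulin, had a log2 difference of -1.24, and Derl3, which takes part in clearing misfolded proteins from the endoplasmic reticulum, one of -1.16. The immune genes among them included Cd209a, a lectin of dendritic cells (-1.44), Spib, a transcription factor of B and plasmacytoid dendritic cells (-1.42), the guanylate-binding protein Gbp4 (-1.28), lymphotoxin beta (Ltb, -1.11), Ly86 (-1.09), the transcription factor Irf4 (-1.08) and the antiviral tetherin gene Bst2 (-1.03). Gja5, a connexin of arterial endothelium, had a difference of -1.21.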
